A study of Mus musculus with 10 samples.

Results

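The genes described here encode the machinery that makes ribosomes: the subunits and factors of RNA polymerase I and the proteins that modify, cut and fold ribosomal RNA in the nucleolus. They were taken by name from the gene table: symbols starting with Nop, Utp or Rrp and a digit, all Polr1 genes, and 16 further genes from Fbl to Rrn3. The rule took 47 of 50273 rows, and all 47 passed the filter on low values. RNA had been sequenced from blastocyst-derived mouse embryonic stem cells in 5 groups of 2 libraries, all kept in Ndiff227 medium with LIF, the MEK inhibitor PD0325901 and the GSK3 inhibitor CHIR99021. The first experiment used C57BL/6J cells of the strain Mof fl/fl; Cre-ER TM, with a group labelled wild type (WT) and a group labelled Mof-KO (KO). Ethanol or 100 nM 4-hydroxytamoxifen, which activates the Cre, was applied for 3 days, and the labels do not say which group had which. Both groups carry the floxed alleles and the Cre, and the labels name no group with active Cre and intact Mof. E14tg2a, an established line of such cells, served for the second experiment: Control had H2O, ETO had 4 days of etomoxir at a dose the labels do not state, and Released had the same treatment and then another 4 days free of the drug. No water group of the same total length as Released is named. Etomoxir blocks the carnitine palmitoyltransferases that let long-chain fatty acids enter mitochondria, and Mof (gene Kat8) is a histone acetyltransferase. The duplicates are called biological, with no statement of separate cultures, so the p-values measure the spread between these samples only.

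Ribosome production starts with RNA polymerase I, which copies the ribosomal DNA repeats into a long precursor RNA. Small nucleolar ribonucleoproteins (snoRNPs) of the box C/D class then methylate this RNA, and those of the box H/ACA class convert chosen uridines to pseudouridine. A large assembly on the nascent precursor, the small subunit processome, releases the small subunit, and separate factors build the large subunit. Embryonic stem cells divide quickly and have prominent nucleoli, and the pathway takes a large part of a growing cell's energy.

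The deposited values are read counts divided by 1 factor per library, called normalised counts below. Libraries summed to between 10562100 and 13326200 normalised counts, from an estimated 9715080 to 16723300 reads. The lowest value of any of the 47 genes, 88.8 for Fbl in ETO replicate 2, lay far above the 2.07 to 4.06 that stand for 3 reads, the limit that a count of 0 allows for counting error. Kat8 measured 433 and 357 in WT and 222 and 205 in KO (log2 change -0.88 ± 0.11 SE, adjusted p = 3.64e-05), and the deleted stretch of the gene is not stated in the labels. All 8 embryonic stem cell markers were detected in every library at 10 or more. Levels refer to the libraries' own scale, so RNA per cell was not measured, and in bulk samples fewer cells of a type and less RNA per cell cannot be told apart. Tests are limma fits over all 10 libraries on log2(normalised count + 1), two-sided, with Benjamini-Hochberg adjustment over 16056 genes, and a gene is said to have risen or fallen at an adjusted p under 0.05.

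Most of the 47 genes were lower with etomoxir and back near the Control level after release. In ETO 37 fell and 0 rose against Control, where 34.0% of all tested genes fell and 26.8% rose (60.8% in all). At an unadjusted p under 0.05 the limma fit had 0 higher and 38 lower members. Their median log2 change was -0.60, beside -0.09 over all genes. In Released it was -0.0088 against Control. In KO 20 rose and 4 fell against WT, where 24.6% of all genes rose and 13.3% fell (37.9% in all), with a median of 0.15 beside 0.08 over all genes. The KO split depended on the scaling: with median-of-ratios or TMM factors it was 15 risen and 6 fallen. Of 16056 genes, 3049 rose and 2784 fell with median-of-ratios factors, and 3048 and 2777 with TMM factors. With total signal, which shifts the median of all genes by -0.16, the members gave 12 risen and 10 fallen, with a median of -0.019. Under that scaling 2172 of all genes rose and 3696 fell. Relative to the median of all genes, the members' median was 0.057 to 0.066 higher in KO and 0.50 lower in ETO (-0.499 to -0.505) under the 4 scalings. After release 36 rose against ETO, where 33.1% of all genes rose (57.7% were called in all).

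**Figure D1:**
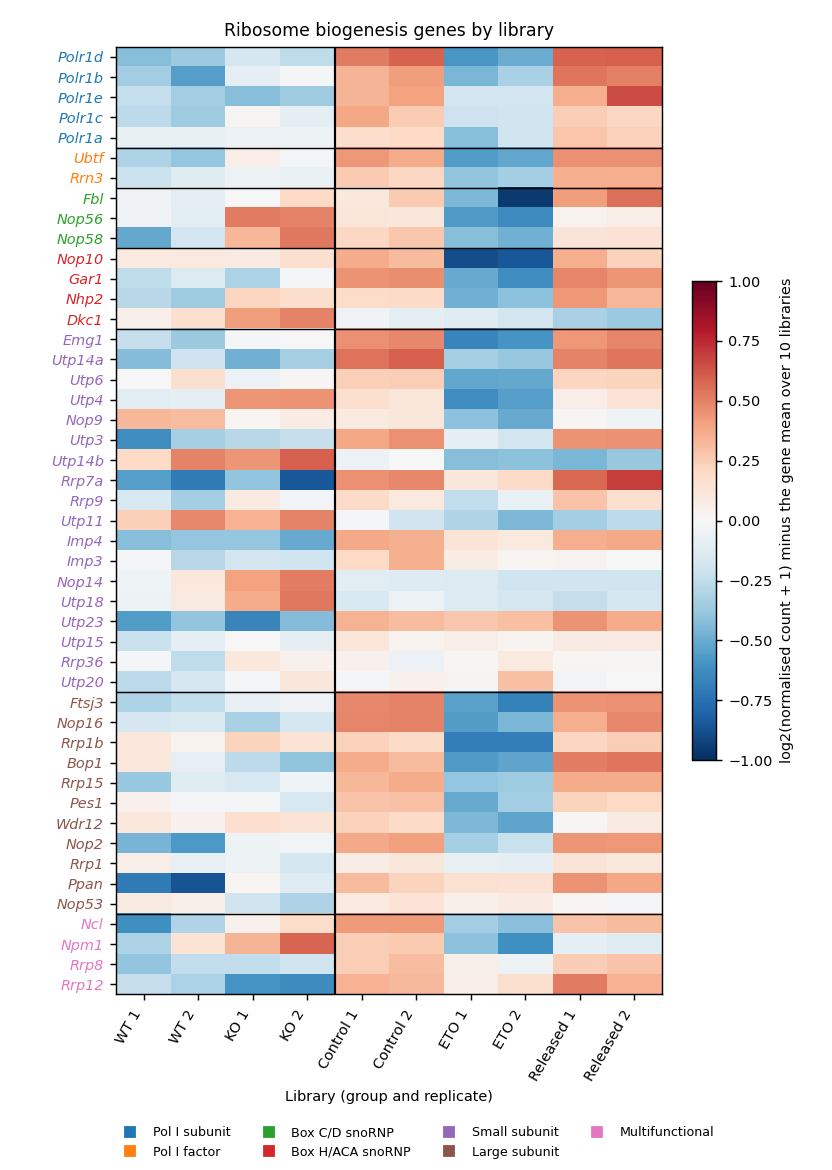
Heat map of 47 genes (rows, by role, within a role by their change in ETO) in 10 libraries (columns). Colour is log2(normalised count + 1) minus the gene's mean over all libraries, limited to -1 and 1. Most rows are blue in the 2 ETO libraries and red in the Control and Released libraries beside them.

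Per length, the most abundant members were those of the nucleolar core. Npm1, a nucleolar chaperone and histone binder, had the highest median, 1151 FPKM (range 724 to 1757 over 10 libraries). Nop56 and Nop58, the paired scaffold proteins of box C/D snoRNPs, had medians of 718 and 606 FPKM. Ncl, the RNA-binding protein nucleolin, stood at 668 FPKM, and Dkc1, the pseudouridine synthase dyskerin, at 367 FPKM. At the other end, Rrp12, which acts in export of both subunits, had 14.6 FPKM and Nop9, a small subunit factor, 14.7 FPKM. The polymerase I subunits lay between 23.3 FPKM for Polr1e and 196 FPKM for Polr1c, which is shared with RNA polymerase III. Within the top of this order, Ncl and Nop58 exchanged places: Ncl had 799 ± 3.61 FPKM in Control against 654 ± 30.0 FPKM for Nop58, but 668 ± 48.3 against 757 ± 70.5 in KO, where the SDs overlap (means ± SD, n = 2).

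Several rows cannot be assigned to 1 gene with certainty. In 5 of the 47, the table merges the member with neighbours. The row of Nop56 also holds 4 small nucleolar RNA genes that lie within it (Gm24451, Gm23187, Gm23650 and Snord57), that of Nop58 holds the small nucleolar RNA gene Gm26293, and that of Ncl holds Snora75 and Mir3535. Nop56 lies on chromosome 2 from 130274430 to 130279313, Nop58 on chromosome 1 from 59684971 to 59719044 and Ncl on chromosome 1 from 86344719 to 86359400 (GRCm38, GENCODE M21). Utp14b, a second gene for the processome protein UTP14, lies within Acsl3, an acyl-CoA synthetase gene, and shares its row. Rrp36 shares a row with Klhdc3. In the annotation, 12 members have at least 200 bases at 95% identity or more in a transcript of another gene, among them Fbl, Npm1, Nop56, Pes1 and Wdr12. How the counting treated such reads, and reads from the strand opposite, is not given in the sources used here, so these levels are uncertain.

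Promoter windows of 300 bases (250 before and 50 after the start, RefSeq, GRCm38.p6) were given for 39 of the 47 members. Those of Bop1, Fbl, Nop53, Npm1, Rrp12, Utp11, Utp23 and Utp6 were not used here. The hexamer CACGTG, the E-box that Myc and its partner Max bind, was searched because Myc is a known regulator of this pathway. It occurred in windows of 9 of the 39 members (23.1%), against 8.09% of 27025 genes with a window, and in 16 of 85 other pathway genes (18.8%). The windows holding it were those of Imp4, Nop2, Pes1, Rrn3, Rrp7a, Utp14b, Utp18, Utp20 and Utp4. CGCATGCG, the core of the NRF1 site, was in 1 member's window (2.56%, against 2.07% of all genes), that of Ubtf. CCAAT on either strand was in 41.0% of members and 41.1% of all genes. CACGTG and CGCATGCG read the same on both strands, and overlapping matches were counted for each motif. The 4 stretches of 60 bases below show the hexamer, in capitals, in members that moved differently: Nop2 rose in KO and fell in ETO, Rrn3 and Imp4 fell in ETO, and Utp18 rose in KO. Each lies 5′ of the transcription start, on the gene's own strand.
Nop2 (chr6:125131796-125131855, plus strand): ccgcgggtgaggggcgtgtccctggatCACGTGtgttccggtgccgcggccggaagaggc
Rrn3 (chr16:13780624-13780683, plus strand): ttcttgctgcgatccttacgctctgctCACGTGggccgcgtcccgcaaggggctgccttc
Imp4 (chr1:34439681-34439740, plus strand): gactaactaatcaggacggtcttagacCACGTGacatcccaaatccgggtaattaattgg
Utp18 (chr11:93885767-93885826, minus strand): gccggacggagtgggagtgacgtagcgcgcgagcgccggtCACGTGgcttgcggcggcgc
The hexamer starts 60 bases before the start site in Nop2, 48 in Rrn3 (whose window holds another, 215 bases before the start), 121 in Imp4 and 20 in Utp18. A match describes the letters only, and binding was not measured.

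The KO and WT groups were set against each other to find transcripts that differ with deletion of Mof. Nop58 and Ppan rose most of the 47 genes, followed by Nop56 and Ncl. Nop58, on the table's row with a small nucleolar RNA gene, measured 3746 and 4673 normalised counts in WT and 6695 and 7692 in KO (log2 change 0.78 ± 0.087 SE, adjusted p = 1.35e-05). Nop56 measured 3447 and 3283 in WT and 5072 and 5004 in KO (log2 change 0.58 ± 0.056 SE, adjusted p = 2.94e-06). The KO libraries lay above both WT libraries for each gene, and the WT pair was further apart for Nop58. Fbl, fibrillarin, the methyltransferase of the same particle, measured 169 and 162 in WT and 174 and 199 in KO and was not called (log2 change 0.17, 95% interval -0.18 to 0.51). Ncl went from 17349 and 21558 in WT to 27386 and 30161 in KO (log2 change 0.57 ± 0.08 SE, adjusted p = 0.000123). Npm1 measured 7392 and 10099 in WT and 11635 and 13733 in KO (log2 change 0.55 ± 0.15 SE, adjusted p = 0.0203). That call was lost with total signal, without the filter, in the FPKM values and without KO replicate 2.

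Of the 4 box H/ACA proteins, Dkc1 and Nhp2 rose, where 24.6% of all tested genes did. Dkc1 measured 6535 and 7060.1 in WT and 8435 and 8859 in KO (log2 change 0.35 ± 0.057 SE, adjusted p = 0.000254), with no overlap. Nhp2, an RNA-binding core protein of the particle, measured 1327 and 1259 in WT and 1871 and 1823 in KO (log2 change 0.51 ± 0.066 SE, adjusted p = 3.07e-05). Gar1, the glycine- and arginine-rich partner, measured 515 and 559 in WT and 494 and 609 in KO, so the groups overlapped. Nop10, the smallest core protein, measured 1077 and 1074 in WT and 1064 and 1124 in KO (log2 change 0.024, 95% interval -0.13 to 0.18).

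On the polymerase side, Ubtf and Polr1b rose. Ubtf, the architectural factor that keeps ribosomal DNA open, measured 3294 and 3131 in WT and 4290.4 and 4042 in KO (log2 change 0.37 ± 0.057 SE, adjusted p = 0.000135). Polr1b, the second largest subunit, measured 1087 and 942 in WT and 1292 and 1357 in KO (log2 change 0.39 ± 0.078 SE, adjusted p = 0.00123). In the FPKM values this call did not hold. Both genes had every KO library above every WT library. Polr1c also rose (log2 change 0.27, adjusted p = 0.00735), a call lost with total signal, in a fit of the first experiment alone and without KO replicate 1. Polr1a, the largest and catalytic subunit, measured 1928 and 1935 in WT and 1956 and 1961 in KO (log2 change 0.02, 95% interval -0.13 to 0.17). Rrn3, the factor that recruits the polymerase to the promoter, measured 2451 and 2618 in WT and 2728 and 2708 in KO (log2 change 0.10, 95% interval -0.023 to 0.23). Neither Polr1a nor Rrn3 passed the test.

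Of 18 small subunit genes, 8 rose in KO (44.4%) and 1 fell (5.56%), beside 24.6% and 13.3% of all tested genes. Only 2 of these rises were kept under every alternative. Utp4, a subunit of the first processome module to bind the precursor, rose most (log2 change 0.55 ± 0.059 SE, adjusted p = 7.1e-06), followed by Utp18 (0.43) and Nop14 (0.42, a call lost in the FPKM values). The calls of Emg1 (0.29), Rrp9 (0.28), Utp20 (0.27), Utp3 (0.22) and Rrp36 (0.21) were lost with total signal, and those of the last 4 also with median-of-ratios or TMM factors. Leaving out 1 library also ended the calls of Rrp9 (WT replicate 2 or KO replicate 1), Utp20 (WT replicate 1 or KO replicate 2), Utp3 (any library but WT replicate 2) and Rrp36 (any but WT replicate 1 and the ETO pair). Nop9 measured 937 and 920.4 in WT and 751 and 780.2 in KO (log2 change -0.28 ± 0.075 SE, adjusted p = 0.00839), a fall lost in the FPKM values, in a fit of the first experiment alone and without KO replicate 1. Imp4, an RNA-binding member of the U3 snoRNP, measured 767 and 787 in WT and 789.9 and 728 in KO, with overlapping groups.

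Of the 11 large subunit genes, 3 rose (27.3%) and 2 fell (18.2%), shares near those of all tested genes (24.6% and 13.3%). Ppan, an assembly factor of the large subunit, measured 1126 and 1014 in WT and 1873 and 1699 in KO (log2 change 0.74 ± 0.072 SE, adjusted p = 3.45e-06). Nop2, which methylates a cytosine of the large rRNA, measured 1626 and 1509 in WT and 2170.1 and 2207 in KO (log2 change 0.48 ± 0.063 SE, adjusted p = 3.9e-05). Ftsj3, an rRNA methyltransferase, rose by 0.22 on the log2 scale, a call lost under the 3 other scalings, in the FPKM values, in a fit of the first experiment alone, in the fit without trend and without KO replicate 2. In the other direction, Bop1 measured 1162 and 1021 in WT and 900.1 and 819 in KO (log2 change -0.34 ± 0.078 SE, adjusted p = 0.00293). Bop1 forms a trimer with Pes1 and Wdr12 that is needed for cutting the precursor. Its partners were not called: Pes1 measured 1654 and 1594 in WT and 1583 and 1436 in KO (log2 change -0.11, 95% interval -0.26 to 0.045), and Wdr12 changed by 0.079 (95% interval -0.081 to 0.24). Nop53, which recruits the RNA exosome to the pre-large subunit, measured 1803 and 1752 in WT and 1470.5 and 1369 in KO (log2 change -0.32 ± 0.063 SE, adjusted p = 0.000965). Rrp12 measured 756 and 712 in WT and 588 and 573 in KO (log2 change -0.34 ± 0.079 SE, adjusted p = 0.00362). In the FPKM values this call did not hold.

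Of the 24 KO calls, 10 rises and 2 falls were kept under every refit listed as an alternative. Ncl, Nop56 and Nop58, among the 10, are merged rows and so have no result where merged rows are left out, which gives 16 rises. The rises were those of Dkc1, Ncl, Nhp2, Nop2, Nop56, Nop58, Ppan, Ubtf, Utp18 and Utp4, and the falls those of Bop1 and Nop53. WT replicates differed more than other pairs, by a median of 0.183 on the log2 scale over all genes against 0.105 to 0.147 in the other groups. The 8 stem cell markers summed to 60634 to 61601 normalised counts in WT and 56252 to 56946 in KO. They did not move together: Esrrb measured 17996 and 16807 in WT and 13446 and 12709 in KO. Pou5f1, Tfcp2l1 and Dppa5a also had lower means in KO. Nanog (5011 and 5096 in WT, 6307 and 6597 in KO), Zfp42, Klf4 and Sox2 had higher means. The sum of 6 primitive endoderm markers was 1681 to 1750.1 in WT and 1254 to 1359 in KO, and most of it is Lama1. The sum of 6 trophectoderm markers was 244 to 305 in WT and 315 to 379 in KO, with Cdx2 at 0 in all 4 libraries and Elf5 at 0 in 3. Neural markers (3 of 4 with a row) summed to 838 to 890.5 in WT and 772 to 793 in KO, and 6 fibroblast and feeder markers to 29.5 to 37.9 and 32.7 to 44.4. The 47 rows held 0.798% and 0.860% of the WT signal and 0.924% and 0.962% of the KO signal. The part of the markers in the results was not tested.

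**Figure D2:**
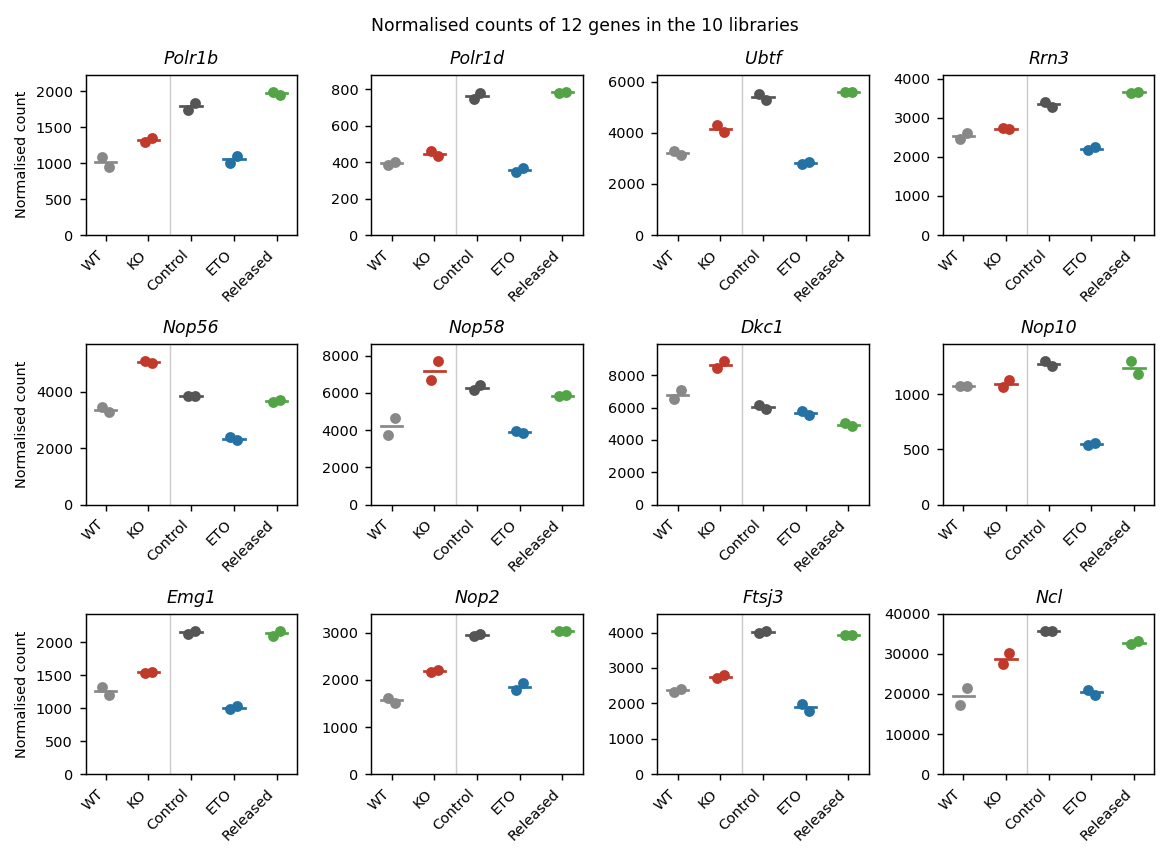
Normalised counts (vertical axes, from 0) of 12 genes in each of the 10 libraries. Points are libraries and bars group means. Ubtf, Polr1d, Nop10, Emg1 and Ftsj3 are low in ETO and back at the Control level in Released, whereas Dkc1 is highest in KO and lowest in Released.

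ETO and Control address the response to etomoxir, and fatty acid oxidation itself was not measured in these RNA libraries. All 5 polymerase I subunits and both of its factors fell, where 34.0% of all tested genes did. Polr1d, shared with RNA polymerase III, measured 744 and 779 normalised counts in Control and 347 and 368 in ETO (log2 change -1.09 ± 0.084 SE, adjusted p = 2.28e-08). Ubtf measured 5529 and 5298 in Control and 2777 and 2851 in ETO (log2 change -0.94 ± 0.057 SE, adjusted p = 1.58e-09), so both ETO libraries held little more than 1 count for each 2 in Control. Polr1b went from 1747 and 1839 to 1006 and 1102 (log2 change -0.77 ± 0.078 SE, adjusted p = 5.27e-07), and Rrn3 from 3404 and 3286 to 2167 and 2250.1 (log2 change -0.60 ± 0.059 SE, adjusted p = 3.5e-07). Polr1a went from 2298 and 2336 to 1515 and 1767 (log2 change -0.50 ± 0.071 SE, adjusted p = 1.71e-05). In the FPKM values this call did not hold. Falls of Polr1e (-0.56) and Polr1c (-0.53) were of similar size to that of Polr1a.

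In the snoRNPs, 6 of 7 proteins fell, beside 34.0% of all tested genes. Nop10, on chromosome 2 from 112261926 to 112263269, had the largest fall of the 47 genes: from 1297 and 1253 in Control it went to 544 and 559 in ETO (log2 change -1.21 ± 0.072 SE, adjusted p = 1.44e-09). Gar1, of the same particle, measured 838 and 849 in Control and 434 and 400.2 in ETO (log2 change -1.02 ± 0.098 SE, adjusted p = 3.07e-07), and Nhp2 fell by 0.63 (adjusted p = 6.46e-07). Dkc1, the enzyme of that particle, measured 6155 and 5896 in Control and 5777 and 5542 in ETO and was not called (log2 change -0.09, 95% interval -0.21 to 0.031). The box C/D proteins fell together. Nop56 went from 3852 and 3826 to 2389 and 2283 (log2 change -0.72 ± 0.056 SE, adjusted p = 2.72e-08) and Nop58 from 6154 and 6411 to 3959.7 and 3819 (log2 change -0.69 ± 0.087 SE, adjusted p = 6.92e-06). Fbl went from 186 and 208 to 127 and 88.8 (log2 change -0.88 ± 0.16 SE, adjusted p = 0.000189), with the ETO libraries well apart from each other.

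Large subunit genes fell in 9 of 11 cases (81.8%, beside 34.0% of all tested genes). Ftsj3 measured 3995 and 4049.7 in Control and 1973 and 1798 in ETO (log2 change -1.09 ± 0.061 SE, adjusted p = 6.83e-10). Bop1, Pes1 and Wdr12, the trimer, all fell: Bop1 from 1399 and 1348 to 730.5 and 748 (-0.89), Pes1 from 1959 and 1969.8 to 1133 and 1260.3 (-0.72), and Wdr12 fell by 0.70 on the log2 scale. Nop2 went from 2924 and 2983 to 1788 and 1928 (log2 change -0.67 ± 0.063 SE, adjusted p = 2.28e-07). Nop16 went from 749 and 755 to 361 and 389, and Rrp1b (-0.90) and Rrp15 (-0.72) also fell. The 2 that did not pass were Ppan, at 2297 and 2150.4 in Control and 2048 and 2033 in ETO (95% interval of the log2 change -0.28 to 0.031), and Nop53, at 1807 and 1859 in Control and 1749 and 1790.1 in ETO (-0.19 to 0.084). The fall of Rrp1 (-0.18) was lost under the 3 other scalings, in the FPKM values, in the fit without trend and when any 1 library of the second experiment was left out.

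Small subunit genes were divided, with 11 of 18 fallen (61.1%, beside 34.0% of all tested genes). Emg1, which methylates a pseudouridine of the small rRNA, measured 2132 and 2174 in Control and 985 and 1034 in ETO (log2 change -1.09 ± 0.067 SE, adjusted p = 1.93e-09). Utp14a (-0.93), Utp6 (-0.76), Utp4 (-0.73), Nop9 (-0.56) and Utp3 (-0.56) fell under every alternative run. Imp4 went from 1339 and 1317 to 1125 and 1104 (-0.25, adjusted p = 0.00516), a call lost with median-of-ratios factors or total signal. The falls of Rrp9 (-0.30), Rrp7a (-0.31) and Utp11 (-0.27) were lost under the 3 other scalings and without Control replicate 1. Leaving out ETO replicate 1 also ended the call of Rrp9, ETO replicate 2 that of Utp11, and any 1 library of the second experiment that of Rrp7a. Utp15, Utp18, Utp20, Utp23, Nop14, Rrp36 and Imp3 were not called, with log2 changes from -0.23 to 0.15. Utp20, a scaffold of the processome, measured 2633 and 2737 in Control and 2703 and 3268 in ETO, and it rose with each of the 3 other scaling factors.

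Among the multifunctional proteins, Ncl fell from 35627 and 35717 to 20980.5 and 19841 (log2 change -0.81 ± 0.08 SE, adjusted p = 1.24e-06) and Npm1 from 10885 and 11037 to 6910.1 and 6005 (log2 change -0.77 ± 0.15 SE, adjusted p = 0.00223). Rrp8, a nucleolar methyltransferase (-0.28), and Rrp12 (-0.22) had smaller falls, which were lost under the 3 other scalings and in the FPKM values. That of Rrp8 was also lost without Control replicate 2 or ETO replicate 2, and that of Rrp12 without either Control library or ETO replicate 1. In all, 28 of the 37 falls were kept under every refit, among them the 3 merged rows of Ncl, Nop56 and Nop58, which have no result where merged rows are left out. With total signal, all genes shifted by 0.16 and the split was 30 fallen and 2 risen (Rrp36 and Utp20). Under that scaling 4041 of 16056 genes fell and 5355 rose. The 47 rows held 1.11% and 1.13% of the Control signal, 0.851% and 0.829% of the ETO signal, and 1.11% and 1.08% of the Released signal. The 8 stem cell markers summed to 62775 to 62980 normalised counts in Control, 37776 to 39675 in ETO and 62863 to 62950.1 in Released. The 6 trophectoderm markers, none of which was at 0 in both libraries of any of these groups, summed to 418 to 428 in Control, 5236 to 5578 in ETO and 950.4 to 1061 in Released. In ETO 4 of these 6 reached 10 in both libraries: Krt8, a keratin, measured 238 and 223 in Control and 2116 and 2334 in ETO. Cdx2, the lineage's transcription factor, was at 61.6 and 35.3 in Control and at 5.93 and 7.47 in ETO. For 6 fibroblast and feeder markers the sums were 62.3 to 64.9 in Control and 167 to 168 in ETO, with Col3a1 at 0 in both ETO libraries. The difference in that sum is Col1a1 (39.6 and 40.5 in Control, 152 and 154 in ETO), while Col1a2, Lum and Col3a1 had lower means in ETO. Primitive endoderm markers summed to 1884 to 1942 in Control and 1520.2 to 1864 in ETO. Most of this sum is Lama1 (1659 and 1624 in Control, 933 and 1299 in ETO). In the other direction, Gata4 measured 22 and 20.8 in Control and 135 and 127 in ETO. Gata6 went from 11.0 and 14.5 to 129 and 125, and Dab2 from 209 and 182 to 284 and 272. Pdgfra had a lower mean in ETO, and Sox17 measured under 10 in each of these libraries. Neural markers summed to 214 to 236 in Control and 714 to 726 in ETO. Of the neural sum, Nes accounts for the rise (198 and 188 in Control, 689 and 683 in ETO), with Pax6 at 8.81 and 11.4 and then 6.92 and 8.3, and Sox1 at 28.6 and 14.5 and then 29.7 and 22.4. Rows of mitochondrial genes held 3.34% to 3.39% of the Control signal and 0.588% to 0.761% of the ETO signal, and 1.71% and 3.71% in Released replicates 1 and 2, the first of which has 2 such rows listed at 0. The part of these shifts in the falls was not tested.

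**Figure D3:**
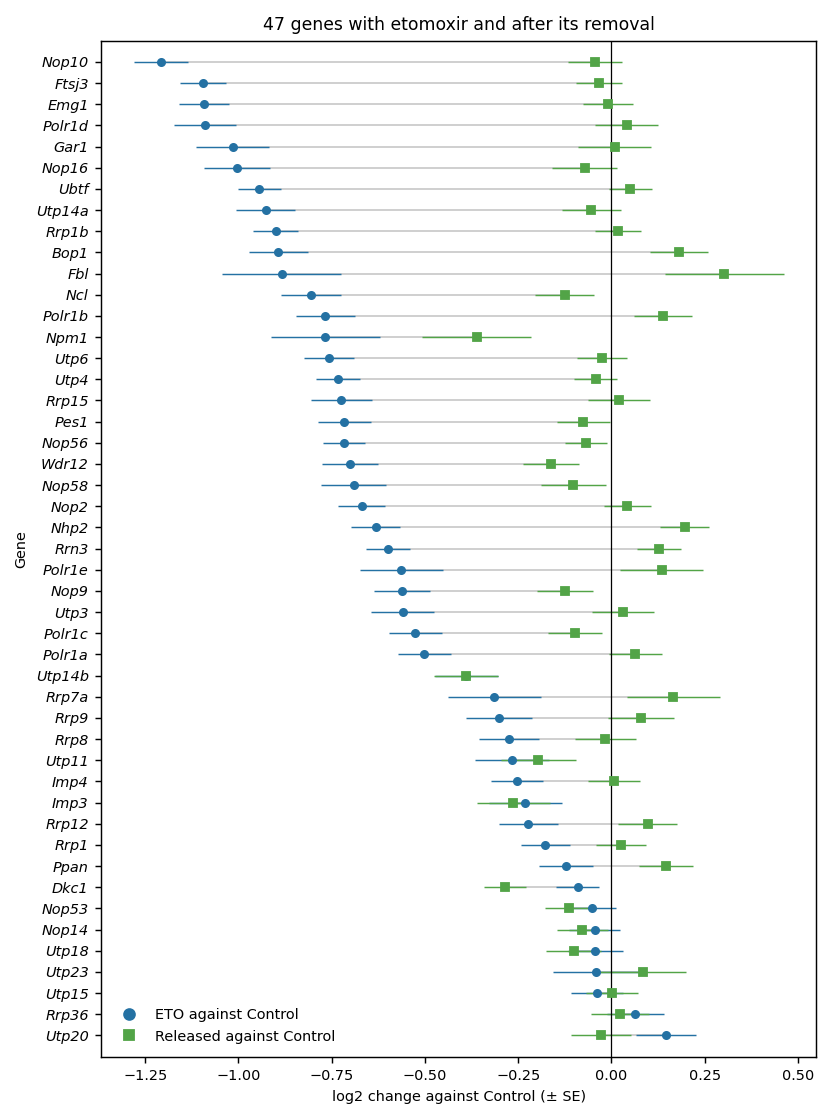
Fitted log2 changes of 47 genes (rows, ordered by their change in ETO) for ETO against Control (circles) and Released against Control (squares), with bars of 1 SE. Both comparisons use the same Control libraries. Circles reach -1.21 for Nop10, and squares lie between -0.39 and 0.30.

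After release, 36 of the 47 genes rose against ETO and 1 fell, where 33.1% and 24.6% of all genes did so. This comparison shares the ETO libraries with the previous comparison. Fbl, at 231 and 254 in Released, had the largest rise (log2 change 1.19 ± 0.16 SE, adjusted p = 1.24e-05). Nop10 came to 1295 and 1181 (log2 change 1.16 ± 0.072 SE, adjusted p = 2.82e-09), Polr1d to 780.2 and 786 (log2 change 1.13 ± 0.084 SE, adjusted p = 1.86e-08) and Emg1 to 2104 and 2176 (log2 change 1.08 ± 0.067 SE, adjusted p = 2.79e-09). These 4 are the largest called rises among members whose Released libraries both exceeded both ETO libraries. Ubtf returned to 5604 and 5609, Rrn3 to 3640.1 and 3666, Polr1b to 1994 and 1953 and Polr1a to 2463 and 2380.4. Nop56 reached 3624 and 3700.5, Nop58 5818 and 5887 and Ncl 32322 and 33069.8. Ftsj3 reached 3924 and 3934, Nop2 3044 and 3037, Bop1 1546 and 1568, Pes1 1879 and 1850.1 and Imp4 1325 and 1344. For all 12 genes of the last 3 sentences both Released libraries lay above both ETO libraries. The share of all tested genes with such separation was not counted, so this describes these genes only. Of the rises, 28 were kept under every refit, those of the same 3 merged rows among them. The rise of Npm1 was not among them: it measured 8609 and 8452 in Released (log2 change 0.41 ± 0.15 SE, adjusted p = 0.0446). That call was lost under the 3 other scalings, without the filter, in the FPKM values, in the fit without trend and with the replicate block. It was also lost without ETO replicate 2 or either Released library.

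Against Control, 2 of the 47 were called in Released and both were lower, where 5.51% of all genes were called lower and 7.03% higher (12.5% in all). At an unadjusted p under 0.05 the limma fit had 3 higher and 5 lower members. Dkc1, on chromosome X from 75095854 to 75109777, went from 6155 and 5896 normalised counts with H2O to 5777 and 5542 with etomoxir and 5030.2 and 4859 after release (Released against Control: log2 change -0.29 ± 0.057 SE, adjusted p = 0.0041). It was the 1 member that fell on release (log2 change -0.19 ± 0.057 SE, adjusted p = 0.00865 against ETO; lost in the fit without trend and without ETO replicate 1 or Released replicate 2), and its lowest levels in the study were those of the Released libraries. The merged row of Acsl3 and Utp14b held 2686 and 2800.1 in the Control pair, 2085 and 2104 in the ETO pair and 2032 and 2155 in the Released pair (Released against Control: log2 change -0.39 ± 0.085 SE, adjusted p = 0.00703), so it lay near its ETO level. Both calls against Control were lost in the FPKM values and in the fit without trend. Without Control replicate 1 or Released replicate 2 the call of Dkc1 was lost, and without Control replicate 2 or Released replicate 1 that of the Acsl3 and Utp14b row. For the other 45 genes the test did not pass, with fitted changes between -0.36 for Npm1 (unadjusted 95% interval -0.70 to -0.022) and 0.30 for Fbl (-0.038 to 0.64). In a fit of the second experiment alone, 5 were lower and 4 higher, where 1650 of 16056 tested genes were lower and 2012 higher.

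The changes in KO and in ETO, which share no libraries, differed for most members. The test of the difference itself (KO change minus ETO change) was positive for 36 of 47 and negative for 1, where 32.3% and 22.2% of all genes were (54.5% in all). The median difference was 0.70, beside 0.13 over all genes. With total signal, which shifts the difference of all genes by -0.33, the counts were 26 and 3 and the median 0.37. Under that scaling 3072 of 16056 genes were positive and 5493 negative, with a median of -0.19. Calls went in opposite directions for 14 genes, higher in KO and lower in ETO: Emg1, Ftsj3, Ncl, Nhp2, Nop2, Nop56, Nop58, Npm1, Polr1b, Polr1c, Rrp9, Ubtf, Utp3 and Utp4. Of all tested genes, 9.80% had that pair of calls. The KO rises of Emg1, Ftsj3, Npm1, Polr1b, Polr1c, Rrp9 and Utp3 were each lost under 1 or more alternatives. So was the ETO fall of Rrp9. A further 6 of the 47 were higher in KO and not called in ETO (6.66% of all genes), among them Dkc1, Ppan and Nop14. Bop1, Nop9 and Rrp12 were lower in both, as were 5.04% of all genes. The KO calls of Nop14, Nop9 and Rrp12 and the ETO call of Rrp12 were lost under some alternatives. The 2 experiments differ in cell line and treatment length as well, which cannot be told apart from the treatments here.

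**Figure D4:**
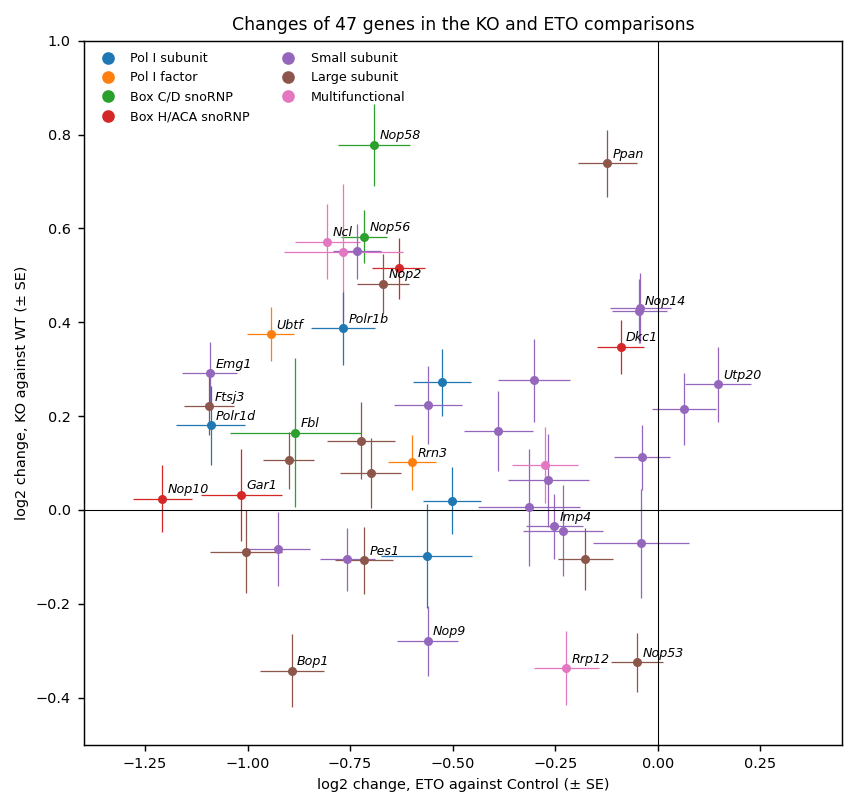
Fitted log2 change in KO against WT (vertical axis) and in ETO against Control (horizontal axis) for 47 genes, coloured by role, with bars of 1 SE. Nop58, Nop56, Ncl, Nop2 and Ubtf lie in the upper left, with higher values in KO and lower values in ETO. Ppan, Nop14 and Dkc1 lie high with ETO changes near 0.

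Other genes of the pathway were also mostly lower in ETO. A list of 109 further genes had 104 rows, all tested. In ETO 83 fell (79.8%, beside 78.7% of the 47 genes) and 2 rose (median log2 change -0.47), and after release 83 rose and 3 fell (median 0.44). Of all tested genes, 34.0% fell and 26.8% rose in ETO, and 33.1% rose and 24.6% fell after release. In KO 31 rose (29.8%) and 12 fell (11.5%), with a median of 0.084, close to the 24.6%, 13.3% and 0.082 of all genes. The split was 21 risen and 21 fallen with median-of-ratios or TMM factors. Of 16056 genes, 3049 rose and 2784 fell with the former and 3048 and 2777 with the latter. With total signal the split was 15 risen and 26 fallen, where 2172 of all genes rose and 3696 fell. Against Control, 6 were higher (5.77%) and 1 lower (0.96%) in Released, beside 7.03% and 5.51% of all tested genes. Of these 7 calls, 0 were kept under every alternative. In ETO 59 of the 83 falls on this list were kept, and after release 60 of the 83 rises. In KO 11 of the 31 rises and 1 of the 12 falls were kept.

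Lyar, a nucleolar factor of pre-ribosomal RNA processing, had the largest ETO fall on this list: its Control libraries held 1424 and 1391, its ETO libraries 566 and 605 and its Released libraries 1339 and 1369 (log2 change -1.26 ± 0.072 SE, adjusted p = 8.51e-10). Dimt1, which dimethylates adenosines of the small rRNA, fell by 1.17 and Rpf2, a large subunit assembly factor, fell by 0.89 on the log2 scale. Ddx21, a helicase that binds ribosomal DNA and snoRNAs, went from 5801 and 5789 in Control to 2975 and 2915 in ETO (log2 change -0.98 ± 0.068 SE, adjusted p = 8.27e-09), and from 3283 and 3809 in WT to 4981 and 5334 in KO (log2 change 0.54 ± 0.068 SE, adjusted p = 2.77e-05). Tcof1, which encodes treacle and is mutated in Treacher Collins syndrome, fell in ETO (-0.60) and was not called in KO (0.09). Nolc1, treacle's relative, counted in a row with Pprc1, fell in ETO (-0.74) and rose in KO (0.31). Gnl3, nucleostemin, likewise fell in ETO (-0.36) and rose in KO (0.41). Heatr1, of the first processome module, fell in ETO (-0.46, lost in the FPKM values), and the ETO fall of Rrs1 (-0.21) was lost under the 3 other scalings and without Control replicate 2 or ETO replicate 1.

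In KO the largest rises on this list were those of Taf1d (0.71), a subunit of the promoter factor SL1 counted in a row of 10 gene names (lost in the FPKM values), Ddx21, Mak16 (0.54) and the export adaptor Nmd3 (0.53). The largest falls were those of Ddx10 (-0.47), Wbscr22 (-0.45, lost in the FPKM values), Shq1 (-0.40) and Noc4l (-0.40, lost without KO replicate 2). The fall of Shq1, an assembly chaperone of dyskerin, was lost without WT replicate 1 or either KO library. In ETO the helicase Ddx55 rose from 353 and 338 to 548 and 492 (log2 change 0.58 ± 0.10 SE, adjusted p = 0.000131). In the FPKM values this call did not hold. The row of Exosc6 also rose (0.43), but it merges that exosome gene with Aars, the alanyl-tRNA synthetase. The other 11 exosome genes all fell in ETO and rose on release. Of these falls 8 were kept under every alternative, as were 8 of the rises. Exosc5, a core subunit, measured 393 and 478 in the ETO pair, 786 and 770.1 in the Control pair and 885 and 824 in the Released pair. All 5 genes of snoRNP assembly likewise fell in ETO and rose on release, where 34.0% of all tested genes fell and 33.1% rose. The ribosomal RNA precursor itself was not analysed here.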

How the data were processed

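RNA was extracted and libraries were made with the Illumina TruSeq protocol and sequenced single-end, per the labels' protocols. Per the submitters' processing notes, TopHat2 2.1.1, SAMtools 1.5, deepTools and the build mm10 were used, and how reads were counted into the gene tables is not given in the sources used here. The authors deposited a table of counts, whose values are signal on a normalised scale: within 0.1 read, 89.1% to 90.8% of values under 20 were whole multiples of 1 value per library, so no count model was fitted. The authors' second table holds FPKM, per the file headers. Rows with the same name were summed, and 2 rows of mitochondrial genes listed at 0 in Released replicate 1 were left out. Genes reaching 10 in 2 or more libraries were fitted with limma 3.58.1 (R 4.3.3) on log2(value + 1), with 1 mean per group, trend and robust moderation. Genes were named by role, from a short list always shown, or as the largest called changes per comparison. For members compared between 2 groups, these largest changes were taken only where the groups' libraries did not overlap. Alternatives were 3 other scalings (median-of-ratios, TMM, total signal), pseudocounts 0.5 and 5, no filter, log2(FPKM + 0.1), 1 fit per experiment, no trend or robust moderation, a replicate block, each library left out, and merged rows left out. The procedure was tested on simulated data. Members, lists, rules and alternatives were chosen with earlier results of these data known. Coordinates come from GENCODE M21 (GRCm38) and promoter sequences from RefSeq (GRCm38.p6).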

Additional observations from a re-analysis of the deposited data

Results flagged for a closer look

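For 21 of the 23 members given with their values in every library, the test of the KO change minus the ETO change passed an adjusted p of 0.05 (limma), which marks an effect that differed between the 2 experiments. The 23 were chosen in part as the largest called changes, those of this difference included, so their share is no result about the members. Of all 47 members, 36 were positive and 1 negative, and over all tested genes 54.5% passed (32.3% positive and 22.2% negative). The log2 difference was positive in 20: 1.47 for Nop58, 1.38 for Emg1, 1.38 for Ncl, 1.32 for Ubtf, 1.32 for Npm1 and 1.32 for Ftsj3. It was 1.30 for Nop56, 1.27 for Polr1d, 1.23 for Nop10, 1.15 for Polr1b, 1.15 for Nop2 and 1.05 for Fbl. Smaller differences were those of Ppan (0.86), Rrn3 (0.70), Pes1 (0.61), Utp14b with Acsl3 (0.56), Bop1 (0.55), Polr1a (0.52), Dkc1 (0.44) and Nop9 (0.28). Nop53 was the 1 with a negative difference (-0.27), a call lost without KO replicate 2, Control replicate 1 or ETO replicate 2. That of Nop9 was lost without WT replicate 2, KO replicate 2, either Control library, ETO replicate 2 or either Released library. With total signal the calls of Bop1, Dkc1, Nop9, Polr1a and Utp14b were lost. In the FPKM values those of Dkc1, Nop9, Polr1a and Utp14b were lost. The call of Nop9 was also lost with median-of-ratios or TMM factors and without the filter.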

How the results depend on the processing

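Counts below are genes risen and fallen among the 47 members or the 104 other pathway genes. In KO, the members gave 12 risen and 10 fallen with total signal and 13 risen and 2 fallen in the FPKM values. Of all genes, 2172 of 16056 rose and 3696 fell with total signal, and 1846 of 17488 rose and 901 fell in FPKM. The others gave 15 and 26 with total signal, 13 and 5 in FPKM, 19 and 6 in a fit per experiment, 21 fallen with median-of-ratios or TMM factors, and 7 fallen without trend. In ETO, members risen were 1 with median-of-ratios or TMM factors and 2 with total signal. Others risen were 7, 6 and 9 with those 3 factors, 4 in a fit per experiment and 1 without merged rows. After release against ETO, members fallen were 3, 2 and 5 with the 3 factors and 0 without trend, and others fallen were 5 with total signal. Against Control, members risen were 1 with total signal and 4 in a fit per experiment, and members fallen 5 in that fit, 1 without merged rows and 0 in FPKM or without trend. Per experiment, 2012 of 16056 genes rose and 1650 fell against Control. Others risen were 10 with total signal, 3 without the filter, 1 in FPKM, 13 per experiment and 0 without trend, and others fallen were 9 per experiment and 0 in the remaining 4 of these settings. For the KO change minus the ETO change, members with a negative call were 2 with median-of-ratios factors and 3 with total signal. With total signal 3072 of 16056 genes were positive and 5493 negative. Others were positive in 39 cases with total signal, and negative in 7, 7 and 10 with the 3 factors and 1 in FPKM. The difference of Nop9 changed sign with total signal, to -0.053 (adjusted p = 0.707). For all of these counts the cause was not tested.

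Leaving out 1 library at a time gave these ranges. In KO, 15 to 20 members rose and 3 to 5 fell, and 23 to 33 others rose and 6 to 13 fell. In ETO, 0 to 1 members rose and 33 to 38 fell, and 2 to 3 others rose and 78 to 84 fell. After release against ETO, 32 to 36 members rose and 0 to 2 fell, and 73 to 87 others rose and 3 fell. Against Control, 0 to 1 members rose and 1 to 4 fell, and 0 to 10 others rose and 0 to 5 fell. Against Control, leaving out either WT library gave 4 members and 5 others fallen and 10 others risen, and leaving out any Control or Released library gave 1 member fallen, 0 others fallen and at most 1 other risen. Without KO replicate 2, 6 others fell in KO. Without ETO replicate 1, 1 member rose in ETO. After release against ETO, 2 members fell without either WT library and 0 without Released replicate 2. For the difference, 33 to 37 members were positive and 0 to 1 negative, and 68 to 77 others were positive and 1 to 6 negative: 6 without WT replicate 2, and 1 without WT replicate 1, KO replicate 2 or Control replicate 2. The 1 negative member, Nop53, was lost without KO replicate 2, Control replicate 1 or ETO replicate 2.

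Replicate numbers are shared by the groups, but same-numbered libraries did not deviate together (correlations -0.036 to 0.081), so they share only a number. With the replicate block, the members gave 20 and 4 calls in KO, 0 and 37 in ETO, 35 and 2 after release against ETO (Npm1 lost, Utp20 newly fallen), 0 and 2 against Control and 36 and 1 for the difference. Of the others, 2 in place of 1 fell against Control under the block. With 2 libraries a group, their number limits precision. Counting error is largest for Fbl, the least counted member (88.8 to 254 normalised counts), whose SE of 0.16 was the largest of the 47, beside 0.056 for Nop56. The SE did not follow the level alone: Npm1, at 6005 to 13733 normalised counts, had an SE of 0.15. Over the named members, 2150 results under an alternative kept their direction and were called in both fits or in neither. A call was lost in 80 and gained in 16, and 1 called value changed sign. A further 30 changed sign without a call in either fit.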

Other observations

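The count and FPKM tables disagreed for a few members, chosen here after their values were seen. Polr1a fell in ETO in the counts, but its FPKM was 45.3 ± 5.72 in Control and 43.8 ± 3.11 in ETO (means ± SD, n = 2, as below), and 60.8 ± 1.54 in Released. Ftsj3 had nearly equal counts in Control and Released, and an FPKM of 115 ± 0.795 and 136 ± 7.26. Imp4, also level in counts between these groups, had 77.7 ± 4.35 and 91.5 ± 2.6 FPKM. Rrp1b had counts of 2247 and 2140.2 in WT and 2429.7 and 2292 in KO, and an FPKM of 142 ± 3.65 and 129 ± 0.64. The source of the disagreement was not tested.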
